A study of Homo sapiens with 6 samples.

Results

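The genes described here code for proteins of the neutrophil granules and for the main cytosolic inhibitor of the granule proteases. They are PRTN3, ELANE, AZU1, MPO and CTSG of the azurophil granules, CAMP, LTF and LCN2 of the specific granules, LYZ, which is stored in several granule types, and SERPINB1. The members are named genes, and every probe set whose platform annotation gave a member as its only symbol was taken. That gave 15 probe sets for the 10 genes, out of 19775 genes with a probe set of their own, and 10 of the 15, from 7 genes, passed the filter on low values. The cells were U937T:PLZF-RARa, made from the human monocytic line U937, in which taking tetracycline out of the medium switches on PLZF-RARA, a fusion of a zinc finger repressor with the retinoic acid receptor alpha found in some patients with acute promyelocytic leukaemia. The 3 induced samples had been washed and cultured for 48 h without tetracycline, and the 3 uninduced samples with 0.1 µg/ml tetracycline. Both groups carried the transgene and grew in 0.5 µg/ml puromycin and 1 mg/ml G418. Each sample was hybridised to its own Affymetrix HG-U133 Plus 2.0 array. The labels do not say whether the replicates were separate cultures or whether the line is a single clone, so the p-values reflect the spread among these samples alone, which may be technical, and 3 arrays a group limit the precision.

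Granulocyte precursors fill their granules in waves. Azurophil granules form first, at the promyelocyte stage, and hold myeloperoxidase and a family of serine proteases that are bound to the proteoglycan serglycin. Specific granules form later, at the myelocyte stage, and hold lactoferrin, lipocalin and the precursor of the antimicrobial peptide LL-37. The transcription factors C/EBP alpha, PU.1 and MYB are known to drive the azurophil genes and C/EBP epsilon the specific granule genes. Monocytes make smaller amounts of several azurophil proteins, and U937 is known for its serine protease transcripts.

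The 4 azurophil members that could be measured fell after induction, and of the specific granule members only CAMP was measured, at a higher level. PRTN3, ELANE, CTSG and AZU1 were 9.90-fold, 6.95-fold, 3.50-fold and 2.50-fold lower in induced samples. CAMP was at least 38.5-fold higher, while LTF and LCN2 lay under the filter on all arrays. SERPINB1 fell at 3 of its 4 probe sets and LYZ at both of its probe sets. Of the 10 member probe sets tested with limma, 9 were lower, beside 27.9% of all 20552 tested probe sets. The remaining one, CAMP, passed the filter through its induced arrays alone. Among the tested probe sets its direction was thereby fixed, and nothing is read from its place among the 34.6% of all called higher. Calls in either direction made up 62.5% of the array, so passing the test does not mark these genes out. The groups did not overlap at any of the 9 other tested member probe sets, beside 70.2% of all tested probe sets. Over these, replicate arrays had Pearson correlations of 0.996 to 0.998, against 0.932 to 0.938 for an induced with an uninduced array. RNA integrity, read from the GAPDH control as its 3' minus its 5' log2 value, was 0.579 ± 0.034 in induced and 0.503 ± 0.025 in uninduced samples (SD, n = 3 each; exact permutation p = 0.1, two-sided and the lowest that such groups can give), and for the ACTB control it was 1.41 ± 0.10 and 1.25 ± 0.08 (exact permutation p = 0.2). The part of RNA integrity in the changes was not tested. An array of a cell population cannot tell fewer cells with a transcript from less of it in each cell.

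**Figure D1:**
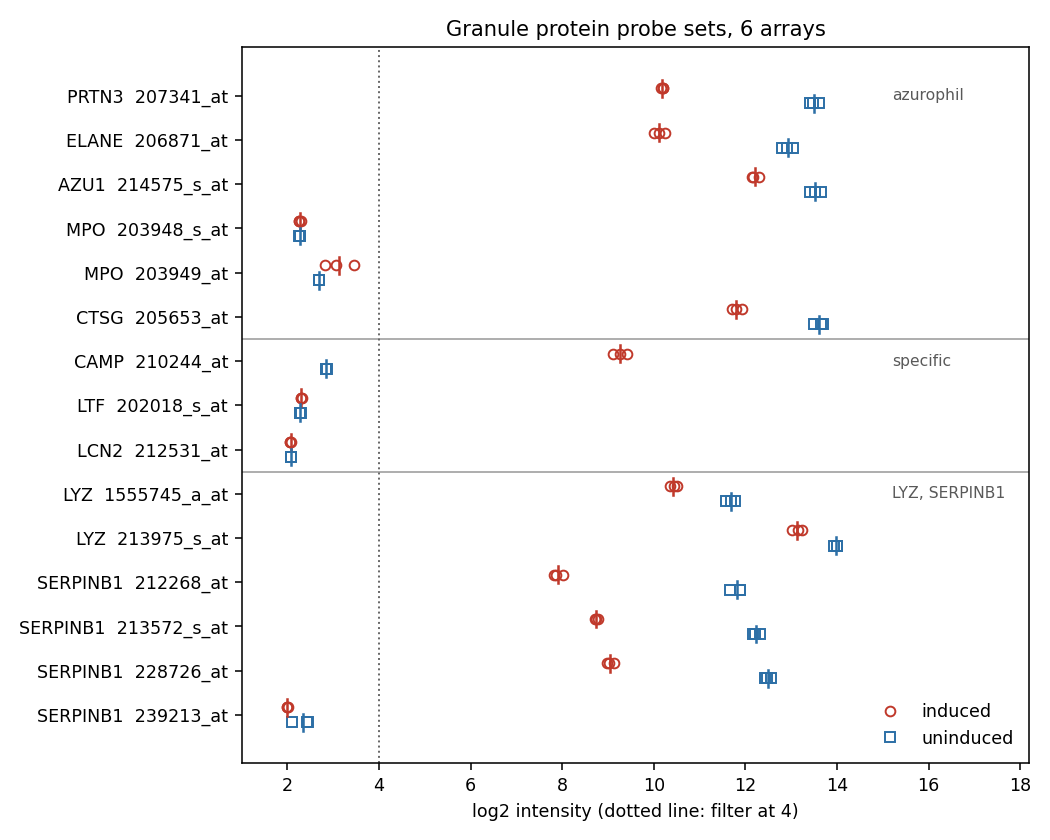
Log2 intensity (x axis) of the 15 probe sets of the granule protein genes (rows), with induced arrays as circles above uninduced arrays as squares, 3 each, and vertical bars for group means. The circles of PRTN3, ELANE, AZU1, CTSG, LYZ and 3 SERPINB1 probe sets lie left of the squares, those of CAMP far to the right, and MPO, LTF and LCN2 lie left of the dotted filter line at a log2 value of 4.

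PRTN3 codes for proteinase 3, the autoantigen of granulomatosis with polyangiitis. Its probe set 207341_at gave intensities of 1183, 1150 and 1169 in the induced samples, against 12413, 11443 and 10879 in the uninduced samples. The induced arrays lay within a narrow range, and every one of them was far below every uninduced array. On the log2 scale the mean was 10.19 ± 0.02 in induced and 13.50 ± 0.10 in uninduced samples (SD, n = 3 each), a difference of -3.31 (SE 0.07; limma, adjusted p = 2.84e-07). Among the 20552 tested changes, ordered from the most negative, it stood in place 59.

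ELANE codes for neutrophil elastase, which is mutated in severe congenital and cyclic neutropenia. Probe set 206871_at had intensities of 1028, 1219 and 1107 in the induced samples and 8383, 7742 and 7171 in the uninduced samples. The groups were again well apart. The log2 means were 10.12 ± 0.12 in induced and 12.92 ± 0.11 in uninduced samples, and the difference was -2.80 (SE 0.09; limma, adjusted p = 1.30e-06), in place 105 of the same order.

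CTSG codes for cathepsin G, a chymotrypsin-like protease that shares the fold of elastase and proteinase 3. Probe set 205653_at had intensities of 3341, 3875 and 3534 in the induced samples and 13227, 12877 and 11518 in the uninduced samples. Its log2 means of 11.80 ± 0.11 in induced and 13.61 ± 0.11 in uninduced samples differed by -1.81 (SE 0.09; limma, adjusted p = 5.16e-06). AZU1 codes for azurocidin, a member of the same family that has lost protease activity and acts as an antimicrobial protein and a chemoattractant. Probe set 214575_s_at had intensities of 4599, 5045 and 4518 in the induced samples and 12842, 11731 and 10861 in the uninduced samples. The log2 difference was -1.32 (SE 0.08; limma, adjusted p = 1.77e-05), the smallest of the 4 azurophil genes measured. A fall of that size or more was called in 4.49% of all tested probe sets. Its probe set carries the suffix _s_at, which marks probes that can bind more than a single transcript.

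MPO codes for myeloperoxidase, the haem enzyme that defines azurophil granules. Probe set 203948_s_at read 2.26 ± 0.02 on the log2 scale in induced and 2.27 ± 0.01 in uninduced samples (SD, n = 3 each). Probe set 203949_at read 3.45, 3.07 and 2.83 in the induced samples, against 2.69, 2.70 and 2.69 in the uninduced samples. The induced arrays were the higher at this probe set, but all 6 lay under the filter, and the table has no detection calls. In a fit with no filter the difference did not pass (limma, adjusted p = 0.162). A fall of MPO could therefore not have been seen. The median change over the 4 azurophil probe sets that passed the filter was -2.30 on the log2 scale, beside 0.03 over all tested probe sets, and it leaves MPO out.

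The sizes of the members' changes were compared in pairs. Within each array the log2 value of every member measured on all arrays was set against that of every other, which gave 15 pairs of 6 genes. In 14 of the pairs the within-array difference did not overlap between induced and uninduced samples, each with an exact permutation p (two-sided) of 0.1, the smallest possible, and 0.107 after adjustment over the pairs, so none passed 0.05. The PRTN3 minus AZU1 difference was -2.13 to -1.95 in induced and -0.05 to 0.00 in uninduced samples, a gap of -1.99 (SE 0.06). ELANE minus CTSG moved by -0.99 (SE 0.02) and PRTN3 minus ELANE by -0.51 (SE 0.08). PRTN3 and SERPINB1 overlapped, with a gap of 0.14 (SE 0.10; exact permutation p = 0.3). These pairs used the brightest probe set of each gene, and the choice decides which pair overlaps. With 212268_at for SERPINB1 the gap to PRTN3 was 0.60 (SE 0.08) and with 213572_s_at 0.17 (SE 0.02), both without overlap, whereas with 1555745_a_at for LYZ the AZU1 and LYZ pair overlapped, with a gap of -0.07 (SE 0.09). Over all 32 combinations of probe sets 2 overlapped, a count added after the data were seen. How many other probe set pairs of the array do not overlap was not computed, so the 14 pairs have no share beside them. Probe sets of the same gene also differed, with changes of -3.45, -3.48 and -3.91 for SERPINB1 and -0.85 and -1.25 for LYZ. The gaps are therefore gaps between probe sets, and whether the genes themselves differ was not tested.

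AZU1, PRTN3 and ELANE lie next to each other on chromosome 19 in RefSeq's gene order. The protein-coding genes around them, 4 on each side, were looked up to see whether the fall extends beyond these 3 genes. That choice, here and for the loci of the other members, was made after the members' values were known. Of those 8 neighbours 4 were tested, of which 2 were higher and 2 did not pass. Over all 9836 tested genes 35.8% were higher and 30.7% lower. CFD, the next gene after ELANE, codes for complement factor D (adipsin), another serine protease that myeloid cells make. It averaged 9.66 ± 0.02 in induced and 8.95 ± 0.01 in uninduced samples (SD, n = 3 each), 1.63-fold higher (limma, adjusted p = 3.86e-05). MED16, a Mediator subunit, was 1.56-fold higher (limma, adjusted p = 7.13e-04). PTBP1, a splicing repressor upstream of AZU1, differed by -0.09 (adjusted p = 0.306; called lower after median centring, adjusted p = 0.0247, and with array weights, adjusted p = 0.0389) and R3HDM4 by -0.11 (adjusted p = 0.354).

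CTSG lies on chromosome 14 beside the granzyme genes GZMH and GZMB and the mast cell chymase gene CMA1. None of those 3 relatives passed the filter: their log2 means in both groups were 2.30 to 2.31 for GZMH, 2.47 to 2.48 for GZMB and 2.30 to 2.31 for CMA1. Of the 8 neighbours of CTSG 2 were tested, and both were lower, beside 30.7% of all tested genes. SDR39U1 was 1.78-fold lower (limma, adjusted p = 5.55e-05) and KHNYN 1.56-fold lower (adjusted p = 0.00202). Around CAMP, on chromosome 3, 6 of 8 neighbours were tested, with 1 higher and 1 lower, beside 35.8% and 30.7% of all tested genes. The other 4 did not pass. These were MAP4 (0.02 on the log2 scale, limma, adjusted p = 0.816), NME6 (-0.08, adjusted p = 0.422), ZNF589 (-0.03, adjusted p = 0.723) and DHX30 (-0.22, adjusted p = 0.0544). DHX30 was called lower under several alternatives, such as median centring (limma, adjusted p = 0.00177), and ZNF589 after quantile normalization (adjusted p = 0.0466).

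**Figure D2:**
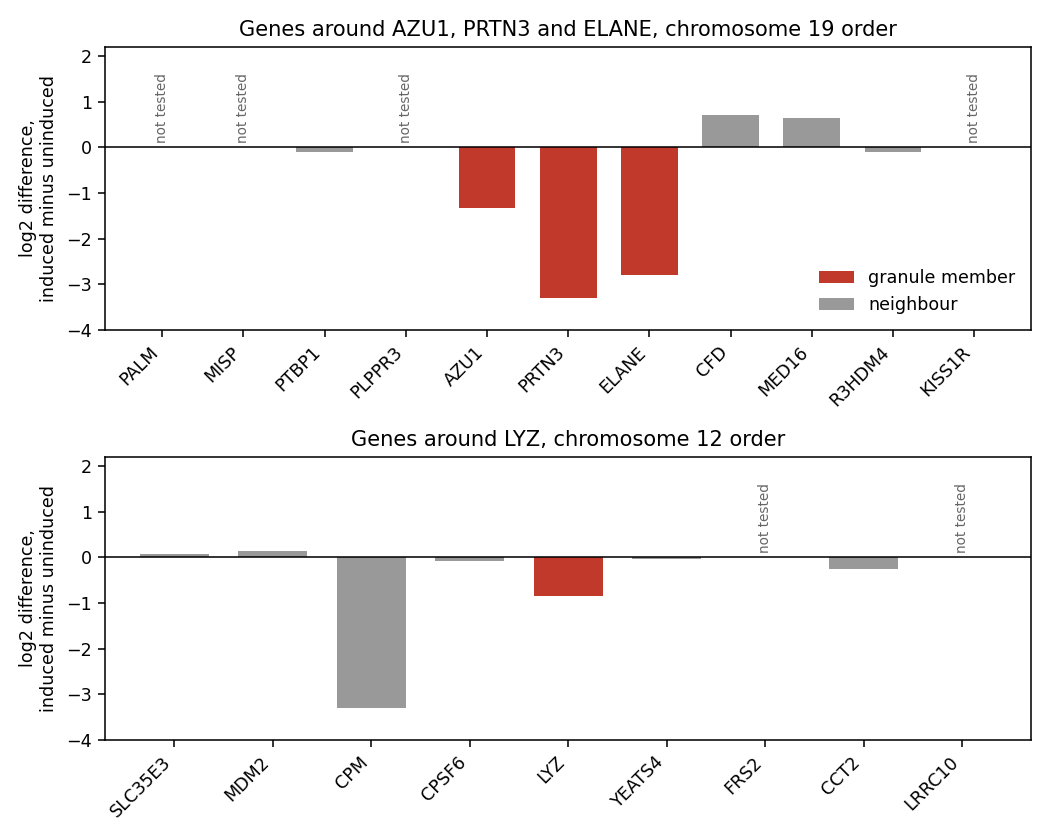
Log2 difference, induced minus uninduced (y axis), of the genes around the AZU1, PRTN3 and ELANE cluster on chromosome 19 (upper panel) and around LYZ on chromosome 12 (lower panel), in gene order, with granule members in red and neighbours in grey. AZU1, PRTN3 and ELANE have bars at -1.32, -3.31 and -2.80 beside CFD at 0.71, and CPM, near LYZ, has a bar at -3.31.

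The sequences before the start sites are shown because 3 azurophil members with an entry were lower and CAMP was higher. RefSeq's promoter table (GRCh38.p14) held 7 of the 10 members; ELANE, MPO and LYZ were not among them. The 250 bases before the start are given 5' to 3' on the gene's strand, for PRTN3 at chr19:840749-840998 (plus strand), AZU1 at chr19:827587-827836 (plus strand), CTSG at chr14:24576251-24576500 (minus strand) and CAMP at chr3:48223245-48223494 (plus strand). Capitals mark matches, on either strand, to the PU.1 core GAGGAA, the MYB core AACNG, the C/EBP forms TTGCNNAA and TTNNGNAA, which can cover the same bases, and the retinoic acid receptor core AGGTCA.
PRTN3: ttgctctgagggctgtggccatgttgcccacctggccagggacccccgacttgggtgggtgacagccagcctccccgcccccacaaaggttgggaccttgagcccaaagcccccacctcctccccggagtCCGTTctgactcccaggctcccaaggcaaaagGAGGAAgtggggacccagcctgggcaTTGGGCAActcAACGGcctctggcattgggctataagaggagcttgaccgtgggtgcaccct
AZU1: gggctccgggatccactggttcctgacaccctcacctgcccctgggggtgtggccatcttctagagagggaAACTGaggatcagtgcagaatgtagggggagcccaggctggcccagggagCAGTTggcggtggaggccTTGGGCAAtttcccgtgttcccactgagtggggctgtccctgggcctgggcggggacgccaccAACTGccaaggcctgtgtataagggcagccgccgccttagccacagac
CTSG: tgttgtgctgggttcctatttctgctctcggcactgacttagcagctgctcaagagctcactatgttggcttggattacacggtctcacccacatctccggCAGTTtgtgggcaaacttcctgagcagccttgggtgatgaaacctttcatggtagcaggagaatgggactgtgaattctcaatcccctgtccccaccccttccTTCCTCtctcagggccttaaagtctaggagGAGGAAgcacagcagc
CAMP: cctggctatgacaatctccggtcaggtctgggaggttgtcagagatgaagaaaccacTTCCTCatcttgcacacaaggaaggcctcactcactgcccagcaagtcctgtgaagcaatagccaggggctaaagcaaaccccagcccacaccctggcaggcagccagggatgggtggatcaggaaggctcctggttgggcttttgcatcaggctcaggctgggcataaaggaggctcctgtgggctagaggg

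PRTN3 and AZU1 held the same C/EBP match, TTGGGCAA, which begins 62 bases before the start of PRTN3 and 111 bases before that of AZU1 and fits both C/EBP forms on opposite strands. PRTN3 also had the PU.1 core 88 bases before its start and 2 MYB cores, beginning 120 bases before it on the minus strand and 51 bases before it on the plus strand. CTSG held the PU.1 core on both strands, beginning 46 and 16 bases before its start, and 1 MYB core. AZU1 had 3 MYB cores and no PU.1 core. CAMP held 1 PU.1 core and no C/EBP or MYB match in this window. The windows of the other members with an entry are not printed. SERPINB1, which fell, held 1 MYB core and no PU.1 or C/EBP match. LCN2, under the filter, held 1 MYB core and both C/EBP forms but no PU.1 core. LTF, also under the filter, held 1 PU.1 core, 2 MYB cores and 1 C/EBP match in the first of its entries. None of the 4 printed windows, and none of the others, had the AGGTCA core. Among 35116 promoter windows of the same length, 23.6% held GAGGAA, 70.6% AACNG, 9.05% TTGCNNAA, 33.2% TTNNGNAA and 12.1% AGGTCA. These letters describe the windows and say nothing about which factor was bound in these cells.

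CAMP was the specific granule member above the filter. It codes for cathelicidin, whose carboxy-terminal part is released by proteinase 3 as the antimicrobial peptide LL-37, and its gene is a known target of the vitamin D receptor in human cells. Probe set 210244_at had intensities of 684, 614 and 555 in the induced samples, against 7.16, 7.20 and 7.30 in the uninduced samples. All uninduced arrays lay below the filter and all induced arrays well above it. The log2 means were 9.27 ± 0.15 in induced and 2.85 ± 0.01 in uninduced samples (SD, n = 3 each). The fold of at least 38.5 is counted against a log2 value of 4. LTF, which codes for the iron-binding lactoferrin, read 2.30 ± 0.02 in induced and 2.28 ± 0.01 in uninduced samples. LCN2, which codes for the siderophore-binding lipocalin NGAL, read 2.07 ± 0.01 in both. Neither was tested, so the median change over measured specific granule members, 6.41, is the change of CAMP.

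SERPINB1 codes for the leukocyte elastase inhibitor, a cytosolic serpin that inactivates elastase, proteinase 3 and cathepsin G when they leak from granules. Probe set 228726_at had intensities of 556, 506 and 522 in the induced samples and 5515, 5716 and 6037 in the uninduced samples, a log2 difference of -3.45 (SE 0.07; limma, adjusted p = 2.39e-07), or 10.9-fold lower. Probe set 212268_at was 15.0-fold lower, at 7.90 ± 0.11 in induced and 11.81 ± 0.12 in uninduced samples, and 213572_s_at was 11.2-fold lower, at 8.75 ± 0.04 and 12.23 ± 0.08. A fall as large as that of 212268_at was called in 0.161% of all tested probe sets. The remaining probe set, 239213_at, lay under the filter at 1.99 ± 0.02 in induced and 2.33 ± 0.20 in uninduced samples. Of the 8 neighbours of SERPINB1 on chromosome 6, 3 were tested, with 1 higher and 2 lower, beside 35.8% and 30.7% of all tested genes. The nearest serpin gene, SERPINB9, whose protein protects cells from granzyme B, read 2.35 ± 0.02 in induced and 2.36 ± 0.02 in uninduced samples.

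LYZ codes for lysozyme, which cleaves bacterial peptidoglycan and is made by monocytes as well as granulocytes. Probe set 213975_s_at had intensities of 9589, 8264 and 9084 in the induced samples and 16386, 16384 and 15560 in the uninduced samples. Probe set 1555745_a_at had 1450, 1299 and 1391 in the induced samples and 3515, 3276 and 3052 in the uninduced samples. The groups did not overlap at either, and the falls were 1.80-fold (limma, adjusted p = 7.32e-05) and 2.38-fold (adjusted p = 1.64e-05). Of the 8 neighbours of LYZ on chromosome 12, 6 were tested, with 2 lower and 4 that did not pass. Over all tested genes 30.7% were lower. CPM, which codes for carboxypeptidase M, a surface enzyme that appears as monocytes become macrophages, was 9.89-fold lower, at 7.66 ± 0.06 in induced and 10.96 ± 0.06 in uninduced samples (limma, adjusted p = 2.39e-07). The other was the chaperonin gene CCT2, 1.20-fold lower (adjusted p = 0.0124).

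**Figure D3:**
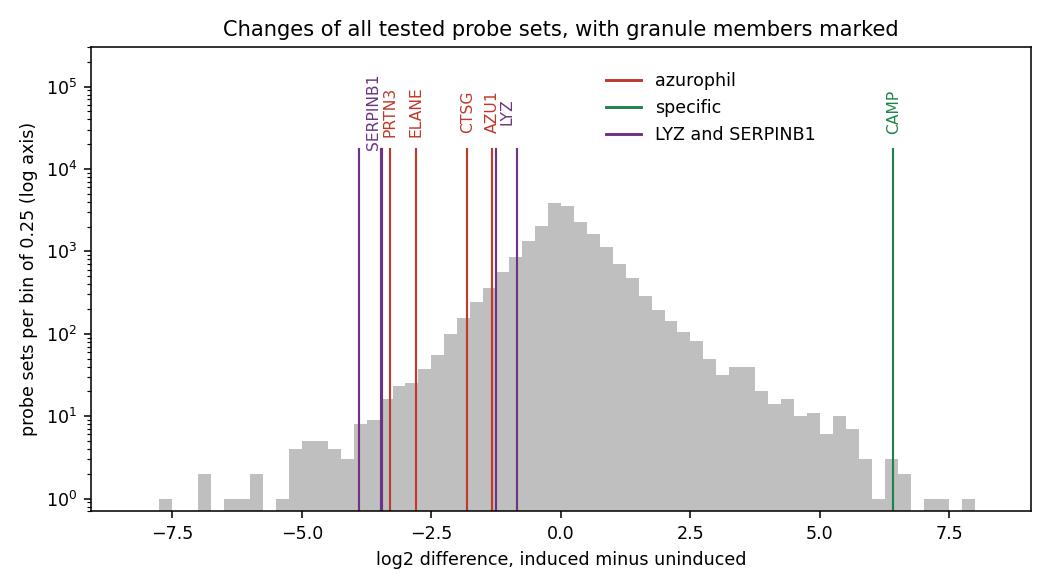
Distribution of the log2 difference, induced minus uninduced (x axis), over all 20552 tested probe sets (grey bars, number per bin of 0.25 on a log axis), with lines at the 10 tested probe sets of the granule members. SERPINB1, PRTN3 and ELANE lie in the thin lower tail, CTSG, AZU1 and LYZ closer to the centre, and CAMP in the upper tail at 6.41.

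Other genes of the azurophil granules went both ways. Of 18 further genes listed as azurophil proteins 9 were tested, of which 5 were higher, 3 lower and 1 did not pass, beside 35.8% higher and 30.7% lower of all 9836 tested genes. The median change was 0.24 on the log2 scale, beside 0.02 over all tested genes, and it was 0.03 with no filter and also without _x_at and _s_at probe sets. Each gene is represented by the brightest of its tested probe sets. CD63, a tetraspanin of the granule membrane, was 2.21-fold higher (limma, adjusted p = 1.33e-04), and the sulfatase ARSB was 1.58-fold higher. The galactosidase GLA was 2.69-fold lower (adjusted p = 2.03e-05) and the mannosidase MAN2B1 1.23-fold lower. RNASE2, the ribonuclease known as eosinophil-derived neurotoxin, differed by 0.03 (adjusted p = 0.715). SRGN codes for serglycin, the proteoglycan that retains the proteases in the granule, and was 1.28-fold lower at its brightest probe set (adjusted p = 0.00589), with its other probe sets at -1.17 and -1.88 on the log2 scale. CTSC codes for dipeptidyl peptidase I, which removes the dipeptide that keeps elastase, proteinase 3 and cathepsin G inactive. Its 4 probe sets disagreed, with 2 higher (0.25 and 0.52), 1 lower (-0.34) and 1 that did not pass (0.00).

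Of 32 further genes listed for the specific and gelatinase granules 12 were tested. Of these 8 were higher, 1 lower and 3 did not pass, beside the same 35.8% and 30.7% of all tested genes. The list is broad: S100A8 and S100A9, counted among the 8 higher, do not code for proteins particular to these granules. The median of 0.53 depends on the probe sets taken: it was 0.00 over 31 genes with no filter and 1.34 without _x_at and _s_at probe sets. Most classical proteins of these granules did not pass the filter: MMP8 read 2.48 ± 0.04 in induced and 2.49 ± 0.02 in uninduced samples, MMP9 2.91 ± 0.03 and 2.90 ± 0.04, and OLFM4 3.10 ± 0.06 and 3.13 ± 0.02. TCN1, which binds vitamin B12, read 2.34 ± 0.12 in induced and 2.27 ± 0.01 in uninduced samples. Those that rose included the heparanase HPSE, 11.5-fold higher at 9.30 ± 0.03 in induced and 5.78 ± 0.15 in uninduced samples (limma, adjusted p = 4.60e-07). The pattern recognition protein PTX3 was 31.0-fold higher and the calcium-binding protein S100A9 3.31-fold higher. S100A8 averaged 8.13 ± 0.15 in induced and 4.22 ± 0.29 in uninduced samples, and since 2 of the 3 uninduced arrays passed the filter it has no fold here. STOM, a membrane protein, was the gene that fell, by 1.80-fold (adjusted p = 2.82e-05).

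The markers of mature neutrophils that were measured in both groups, CXCR2 and CSF3R, were lower. Of 6 markers 3 lay under the filter on all arrays, among them FCGR3B at 2.04 in both groups and CEACAM8 at 2.60 in induced and 2.61 in uninduced samples. The chemokine receptor CXCR2 was 1.87-fold lower and the G-CSF receptor CSF3R 1.55-fold lower, and the formyl peptide receptor FPR1, above the filter in induced samples alone, was at least 1.77-fold higher. The summed level of the list was 9.08 to 9.11 in induced and 9.75 to 9.86 in uninduced samples on the log2 scale. Of 7 monocytic markers with a probe set, CD14, CSF1R, FCGR1A and CD163 lay under the filter in both groups, and CLEC12A (2.90-fold), ITGAM (by 0.99 on the log2 scale; 1 uninduced array was under the filter) and CD4 (1.18-fold, lost under 4 of 15 alternatives) rose. The summed monocytic level was 11.62 to 11.74 in induced and 10.52 to 10.63 in uninduced samples. Eosinophil and mast cell markers were under the filter in 6 of 7 cases, T and NK cell markers in 5 of 6 and erythroid and megakaryocytic markers in 4 of 4, and of 4 B cell markers 2 were. The exception in the first list was the tryptase gene TPSAB1, whose _x_at probe set may also bind related tryptase transcripts, 2.79-fold higher, and in the second NCAM1, 2.17-fold higher. Among the B cell markers PAX5 differed by -0.14 (limma, adjusted p = 0.128) and was called lower after quantile normalization (adjusted p = 0.00855). CD79B averaged 4.12 in induced and 2.81 in uninduced samples. It did not pass the filter, and in a fit with no filter it was higher (limma, adjusted p = 0.0146). The part of any of these lists in the changes of the granule genes was not tested.

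Transcription factors and cofactors listed as granule gene regulators went both ways. The list is broad, and not all of its genes are established regulators of granule genes. Of 16 tested 9 were lower, 3 higher and 4 did not pass, with a median of -0.39 (-0.88 to -0.29 over the alternatives), beside 30.7% lower and 35.8% higher of all tested genes. MYB averaged 11.22 ± 0.08 in induced and 12.54 ± 0.08 in uninduced samples, 2.50-fold lower (limma, adjusted p = 9.83e-06). CEBPB, a factor of stress granulopoiesis and of monocytes, was 3.36-fold lower (adjusted p = 5.31e-06). SPI1, which codes for PU.1, was at least 8.70-fold lower. It is counted among the 9 lower, but it passed the filter through its uninduced arrays alone, which fixed its direction. CEBPE was 10.0-fold, IRF8 5.86-fold, CEBPA 2.64-fold and GFI1 1.34-fold lower. The vitamin D receptor gene VDR, whose protein acts on CAMP, was 1.28-fold lower (adjusted p = 0.00885), chosen after its value was seen. STAT3 (1.81-fold), LMO2 (1.34-fold) and CBFB (1.18-fold) were higher, the last with a call lost under 7 of 14 alternatives. RARA, which gives part of the fusion, is counted as not passing through its brightest probe set, at -0.22 (adjusted p = 0.133). Its other tested probe sets disagreed: a probe set that passed the filter through its induced arrays averaged 7.58 in induced and 1.87 in uninduced samples, another was lower, at -1.17, and the last differed by -0.12 (adjusted p = 0.301). The 6 arrays in 2 groups do not allow a factor to be tied to any granule gene.

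Protease inhibitors other than SERPINB1 went both ways, with 6 of 10 tested genes higher, 3 lower and 1 that did not pass, beside 35.8% higher and 30.7% lower of all. The median was 0.57, and 0.00 over 15 genes with no filter. SERPINB10, a myeloid serpin of the same clade, was 9.34-fold lower, at 6.19 ± 0.46 in induced and 9.41 ± 0.05 in uninduced samples (limma, adjusted p = 2.04e-05). SERPINB8 averaged 4.14 ± 0.20 in induced samples, 2 of 3 above the filter, and 6.26 ± 0.07 in uninduced samples (adjusted p = 7.00e-06). CST7, the cystatin that inhibits CTSC, was 1.37-fold lower. The secreted elastase inhibitor alpha-1 antitrypsin, SERPINA1, was 3.24-fold higher (adjusted p = 3.87e-05), and the metalloprotease inhibitors TIMP1 and TIMP2 were 3.39-fold and 3.56-fold higher, with the cystatin CSTA 1.48-fold higher. SLPI, a secreted inhibitor of elastase and cathepsin G, differed by -0.05 (adjusted p = 0.693).

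Among 22 tested genes listed for granule sorting and exocytosis 7 were higher, 9 lower and 6 did not pass, with a median of -0.14. The list is broad and takes in genes that do not act in sorting or exocytosis. Among these are G6PC3, SLC37A4 and HAX1, counted among the 9 lower, and CLEC2B, which did not pass. Over all tested genes 35.8% were higher and 30.7% lower. On this list the number lower ranged from 8 to 12 over the alternatives. STX11, among the 7 higher, passed the filter through its induced arrays alone. RAB27B, a GTPase of granule docking that passed the filter through its induced arrays alone, was at least 76.0-fold higher, and the sorting protein VPS45, mutated in a congenital neutropenia, was 3.03-fold higher (limma, adjusted p = 2.98e-06). SNAP23 (1.49-fold) and NBEAL2 (1.82-fold) were higher too. STXBP2, which acts in membrane fusion of granules, was 2.57-fold lower (adjusted p = 9.54e-06). G6PC3, a phosphatase whose loss causes neutropenia, was 2.02-fold lower, VAMP8 2.07-fold and LYST, the Chediak-Higashi gene, 1.94-fold lower.

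Lysosomal hydrolases and cytotoxic granule genes, whose products are stored in related organelles, were counted in the same way. Of 28 tested lysosomal hydrolases 11 were higher, 9 lower and 8 did not pass, beside 35.8% higher and 30.7% lower of all tested genes. The median was 0.09, and it ranged from -0.22 to 0.12 over the alternatives. On the azurophil list are also 4 of these tested hydrolases. GALC (2.15-fold), ACP2 (2.76-fold), CTSB (1.69-fold) and NEU1 (1.75-fold) were higher, and CTSZ (3.16-fold), CTSD (2.33-fold) and ASAH1 (1.83-fold) were lower. Of 11 cytotoxic granule genes 3 were tested. PRF1 and CTSW passed the filter through their induced arrays alone, at least 58.3-fold and 32.8-fold higher, and NKG7 was 6.58-fold higher, while the median over all 11 with no filter was 0.00 and GZMA, GZMB, GZMH, GZMK and GNLY lay under the filter in both groups. The lists are described by their counts, and no difference between them was tested.

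**Figure D4:**
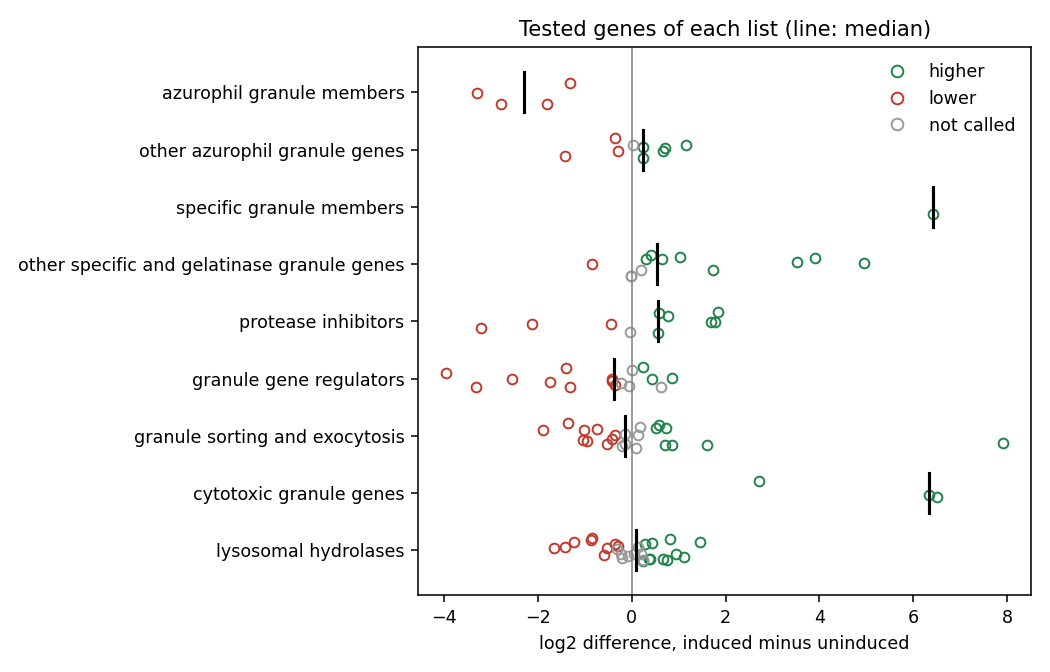
Log2 difference, induced minus uninduced (x axis), of each tested gene (circle) in 9 gene lists (rows), coloured by whether it was higher, lower or not called in limma, with a black line at the list median. The 4 tested azurophil members lie between -3.31 and -1.32, while the other azurophil genes straddle 0 with a median of 0.24.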

How the data were processed

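Expression was measured in 3 induced and 3 uninduced samples, grouped by their titles. The deposited table holds a linear intensity per probe set, produced by the authors with GCRMA (background correction, normalization and probe summary), per the submitters' processing notes. Values under 1 were set to 1 before log2. The 62 control probe sets were left out, and genes were named where GEO's platform annotation gave exactly 1 symbol. Probe sets above a log2 value of 4 (an intensity of 16) on at least 3 arrays were tested with limma 3.58.1 (R 4.3.3), two-sided, with Benjamini-Hochberg adjustment and a threshold of 0.05; "rose" and "fell" are calls past it. Where a group lay at or under the filter on all 3 arrays, the fold is "at least", against a log2 value of 4. The fit was also run on simulated data in which few probe sets changed. That run does not show how the fit behaves where most of the array is called, as here. Alternatives changed the filter, scaling, variance model, array weights, log scale, probe set types and replicates.

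The members and lists were chosen with earlier results of these data known. Per list, up to 4 genes in each direction with the smallest adjusted p are named, besides known regulators and neighbours; genes below the filter or not passing are examples picked after their values were seen. Gene order came from RefSeq GRCh38.p14. Same-numbered samples did not deviate together (r = -0.17, 0.00 and 0.18), so the number was not used as a pairing.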

Additional observations from a re-analysis of the deposited data

How the results depend on the processing

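The 9 tested member probe sets other than CAMP kept their direction and stayed past the threshold under each of 15 alternatives. Those ending in _s_at had 14, since 1 alternative left them out. The alternatives dropped the filter or raised it to a log2 value of 6, and normalized the arrays by quantiles or centred them on the median. Others used eBayes with a trend and robust, array weights, the replicate block or log2(value + 1). The rest removed _x_at and _s_at probe sets or left out each array. The change ranged from -3.39 to -3.26 for PRTN3, -2.88 to -2.74 for ELANE, -1.89 to -1.76 for CTSG and -1.40 to -1.26 for AZU1. The highest adjusted p of the 9 was 5.46e-04 (limma), for LYZ 213975_s_at. For CAMP, which passed the filter through its induced arrays alone, the change ranged from 6.23 to 6.49. It was also called higher with no filter, and nothing more is read from it. Counts of 9 lower and 1 higher member probe sets were also obtained with the replicate number as a block. With no filter, which lets in MPO, LTF and LCN2, the median was -1.56 for azurophil and 0.017 for specific members. With log2(value + 1) the specific median was 6.23. Without _x_at and _s_at probe sets, which removes AZU1, the azurophil median was -2.80, and fewer probe sets were tested over the array, with 4365 higher and 3172 lower, 7537 in all. Leaving out each array gave azurophil medians of -2.36 to -2.25, specific medians of 6.34 to 6.49, and array-wide calls of 11594 to 12876. Of 124 other tested list genes and neighbours, recomputed under the same alternatives in a step added after the data were seen, 0 reversed a call and 5 lost it under at least 1 setting: CBFB, CD4, CDC25A, CTSH and GUSB, with adjusted p-values of 0.0509 to 0.0921 there. A further 17 genes gained a call under at least 1 setting, up to 13 under quantile normalization. Scaling moved the split over the array: 45.6% of calls were higher after quantile normalization, 48.1% after median centring and 55.4% as reported.

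Limits bear on every value: dim probe sets have no detection call, so a fall of a gene under the filter cannot be seen, and 3 samples a group of unstated origin do not measure variation between cultures.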
